A study of Mus musculus with 32 samples.

Results

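The 49 genes described here encode the machinery that carries proteins between the endoplasmic reticulum (ER) and the Golgi apparatus and the tethers that hold Golgi vesicles and cisternae together. They were listed by name and function, and all 49 were found among the 53465 genes of the count table. By role they were 11 COPII coat genes, 10 COPI coat genes with their ARF GTPases, 9 cargo receptors, 4 SNAREs, 7 golgins with Uso1, and 8 subunits of the COG complex. They were measured by bulk RNA sequencing in B lineage cells sorted from spleens of C57BL/6 mice aged 12 weeks, 14 days after they had been injected intraperitoneally with NP-CGG/alum, a haptenated foreign protein. Every mouse carried a Cre recombinase driven in activated and germinal centre B cells. The WT mice carried the Cre alone, and the aPIK3CD mice carried it with activated PIK3CD, the catalytic delta subunit of phosphoinositide 3-kinase. Naive B cells, dark zone and light zone germinal centre B cells, and plasma cells of each genotype made 8 groups of 4 libraries, each from 500 sorted cells. The genotype field of the 4 libraries titled aPIK3CD replicate 1, 1 in each population, names the Cre with WT, and these libraries were grouped by title. The labels do not say that replicates came from separate mice, so p-values measure only the spread between these libraries. The series asks what activated PIK3CD signalling does to each population.

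Newly made secretory proteins leave the ER in vesicles coated with COPII. The GTPase SAR1 recruits the coat, SEC23 and SEC24 form its inner layer, SEC24 selects cargo, and SEC13 with SEC31 forms the outer cage. COPI vesicles, recruited by ARF GTPases, return escaped ER proteins and recycle Golgi enzymes. Cargo receptors load proteins into these vesicles, long golgins and the COG complex capture vesicles at Golgi membranes, and SNAREs drive fusion. Plasma cells send large amounts of antibody along this route.

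Total counts were 473149 to 788999 in plasma cell libraries and 902088 to 2820830 in 23 of the other 24, and dark zone WT replicate 3 held 25797. Marker sums of plasma, naive and germinal centre B cells followed the sort labels, and those of the zones did so in part. The 7 plasma cell markers summed to 11102 to 14216 CPM (counts scaled to library size) in plasma cells and to 925 to 1206 in naive cells of both genotypes. The 5 germinal centre markers used here summed to at least 1749.5 CPM in dark and light zone libraries and to at most 259 in the other groups, and the 5 naive B cell markers to at least 4277 CPM in naive and at most 2911 in other libraries. The 4 dark zone markers summed to 878 to 1453 CPM in dark zone and 431 to 854 in light zone libraries, although Ccnb1 alone had means of 122 and 123 in dark and light zone WT. The 4 light zone markers summed to 1423 to 2014 CPM in light zone and 527 to 1114 in dark zone libraries, but also to 1308 to 1633 in naive and 1380 to 1595 in plasma cells, so they set the zones apart from each other only. Pik3cd was at 102 to 123 CPM in WT and 58.8 to 100.2 in aPIK3CD plasma cells, a measure of the transcript that does not check the activating allele. The 6 T cell markers summed to 158 to 509 CPM in plasma cells and to 7.25 to 85.4 in naive cells. The 8 myeloid markers summed to 25.0 to 518 CPM in plasma cells and to 7.23 to 64.8 in naive cells, and S100a8 and S100a9, 2 of the 8, were at 0 in all plasma cell libraries. The 5 dendritic and NK cell markers ran the other way, at 142 to 239 CPM in naive WT against 14.4 to 32.8 in plasma WT, and 74.5 to 175 in naive against 20.6 to 66.9 in plasma aPIK3CD. Of these, Siglech and Ncr1 had means of 88.1 and 60.6 CPM in naive WT and 0.55 and 0 in plasma WT. The 4 erythroid markers summed to at most 33.7 CPM in naive and 250.2 in plasma cells. The part of these other cells in the plasma against naive results was not tested. In these bulk libraries, fewer cells of a type and less RNA per cell cannot be told apart.

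A larger share of plasma cell than of naive B cell counts came from these genes, unevenly by role: all cargo receptors rose, no COG subunit rose in WT, and the number of coat genes that rose in WT depended on how libraries were scaled. The summed share of all counts taken by the 49 genes was 0.664% to 0.710% in naive WT libraries and 1.18% to 1.31% in plasma WT libraries, without overlap. In aPIK3CD it was 0.659% to 0.775% in naive and 1.44% to 1.501% in plasma cells. Light zone libraries were at 0.525% to 0.648% and dark zone libraries at 0.530% to 0.615%, apart from 0.364% in the shallow dark zone WT replicate 3. In plasma against naive WT cells (edgeR quasi-likelihood test, Benjamini-Hochberg adjusted p below 0.05 over all genes), 32 of 49 members rose and 3 fell, beside 25.4% of all tested genes that rose and 24.2% that fell. The members' median log2 fold change was 0.96, and that of all 9768 tested genes was -0.09. In aPIK3CD, 39 rose and 2 fell, beside 26.5% and 26.2% of all tested genes, with a members' median of 1.32. The same 32 members rose in both genotypes, and no member was called in opposite directions.

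This split depended on how libraries were scaled. Normalization by trimmed means (TMM) is meant to allow for a few genes that take much of a library, as immunoglobulin genes can in plasma cells. The part of such genes in the difference between scalings was not tested. With library totals alone, the median of all tested genes in the WT comparison moved from -0.09 to -0.55, that of the members from 0.96 to 0.49, 23 members rose and 9 fell. All 9 cargo receptors rose under both scalings. Among COPII genes in WT, 8 rose and 1 fell with TMM and 5 rose and 2 fell with totals, and among COPI genes 9 rose and 0 fell with TMM and 4 rose and 1 fell with totals. COG subunits that fell numbered 2 with TMM and 5 with totals. The shares of all tested genes called with library totals are not given. Counts of members by totals, here and below, therefore cannot be set beside such shares. In aPIK3CD, totals gave 34 rises and 3 falls, with 8 rises and 1 fall in COPII, 9 and 0 in COPI, and 2 and 2 in COG. In unscaled counts, 4 members (Copz2, Kdelr3, Lman1 and Tmed10) were higher in every plasma WT than in every naive WT library although plasma totals were lower, as were 3.76% of all tested genes. In aPIK3CD the same 4 and Sec24d were, beside 4.32%.

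**Figure D1:**
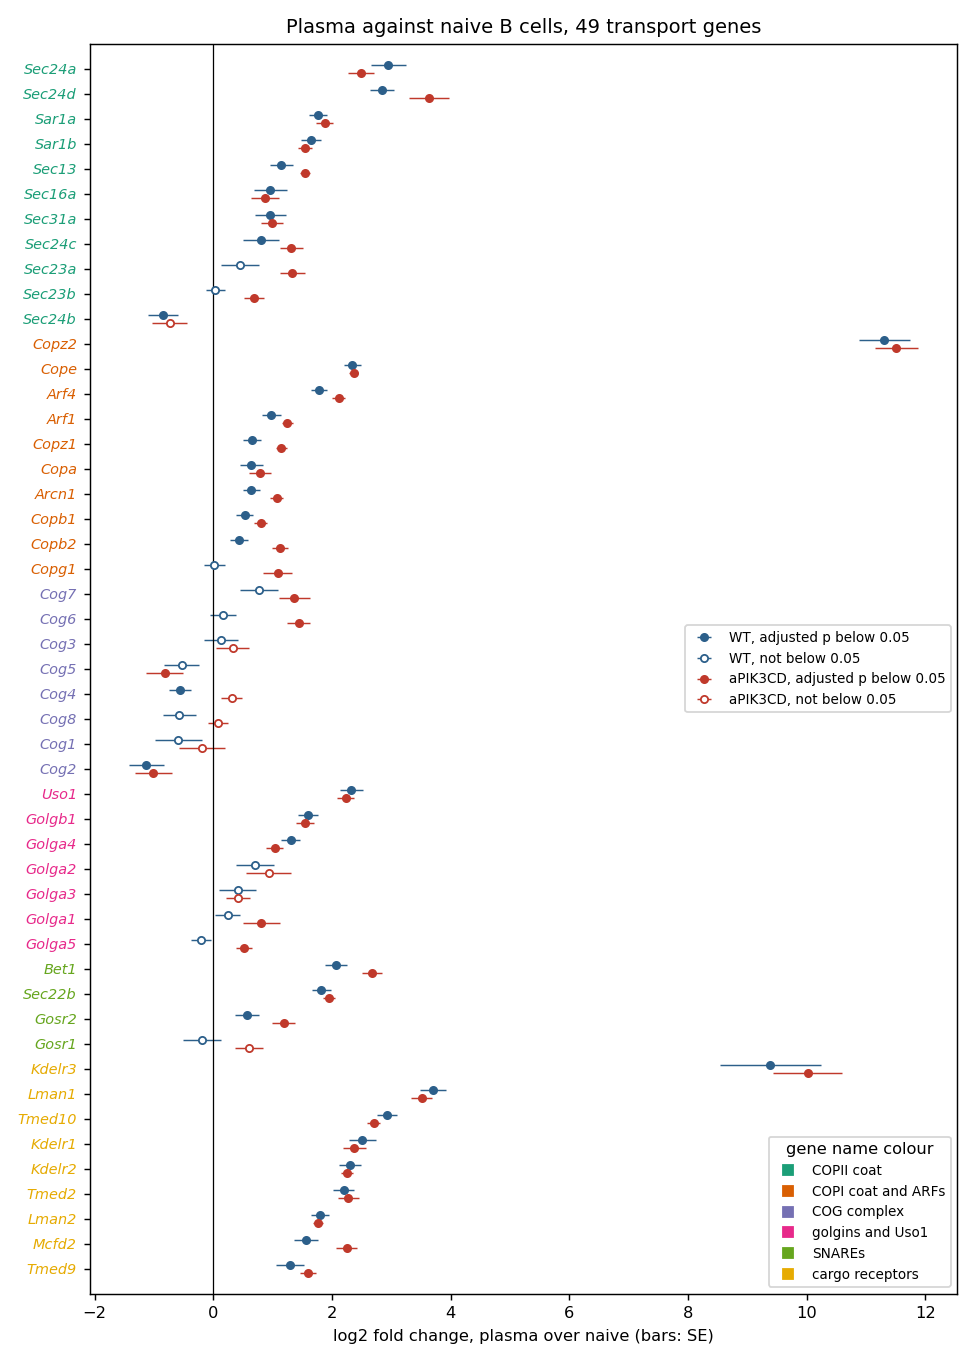
Log2 fold change of plasma over naive B cells for the 49 genes, WT in blue and aPIK3CD in red, with SE bars and filled points where the adjusted p was below 0.05. Cargo receptors all lie to the right of 0, COG subunits lie around it, and the fitted values of Copz2 and Kdelr3, which had 0 counts in naive cells, depend on the prior count.

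Among cargo receptors, 9 of 9 rose in plasma cells of each genotype, beside 25.4% of all tested genes in WT and 26.5% in aPIK3CD. Lman1 (ERGIC-53) is a lectin that carries glycoproteins out of the ER. Its CPM in replicates 1 to 4 was 41.0, 66.1, 78.6 and 96.4 in naive WT and 945, 768, 899 and 643 in plasma WT libraries (log2 fold change 3.70, adjusted p = 5.56e-09 by edgeR, SE 0.22). Every plasma library lay above every naive one, as in aPIK3CD, with 112, 58.4, 76.3 and 86.5 in naive and 979, 862, 835 and 752 in plasma cells (log2 fold change 3.51, adjusted p = 1.3e-08 by edgeR, SE 0.18). The share of all tested genes whose CPM separated in this way between populations is not given. Separation between populations, here and below, therefore describes single genes only. Mcfd2, the calcium-binding partner of LMAN1, was at 84.3, 108, 146 and 129 CPM in naive WT and 323, 212, 327 and 363 in plasma WT (log2 fold change 1.56, adjusted p = 1.5e-05 by edgeR, SE 0.20). In aPIK3CD Mcfd2 was at 135, 70.9, 113 and 104 CPM in naive and 394, 443, 467 and 512 in plasma cells (log2 fold change 2.25, adjusted p = 5.94e-07 by edgeR, SE 0.18). Tmed10, a p24 family protein that cycles between ER and Golgi, was at 110.4, 76.5, 81.3 and 90.5 CPM in naive WT and 624, 633, 545 and 619 in plasma WT (log2 fold change 2.93, adjusted p = 3.12e-09 by edgeR, SE 0.17). In aPIK3CD Tmed10 was at 95.8, 104, 93.0 and 82.5 CPM in naive and 523, 517, 605 and 558 in plasma cells. Its log2 fold change there was 2.70 (adjusted p = 3.08e-09 by edgeR). The other p24 genes, Tmed2 and Tmed9, rose in WT with log2 fold changes of 2.20 and 1.29, and the lectin Lman2 with 1.80.

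The KDEL receptors return escaped ER chaperones from the Golgi, and all 3 were higher in plasma cells, 1 of them from no counts at all. Kdelr3 had 0 counts in all 8 naive libraries and 33, 15, 43 and 10 counts in plasma WT, which is 71.5, 36.1, 70.6 and 21.9 CPM. In plasma aPIK3CD it had 62, 39, 29 and 51 counts, or 91.1, 70.5, 51.9 and 82.3 CPM. Against a floor of 3 counts over the naive group, Kdelr3 was at least 175-fold higher in plasma WT and at least 261-fold higher in plasma aPIK3CD. Kdelr1 was at 26.5, 42.5, 45.1 and 55.1 CPM in naive WT and 178, 260, 219.9 and 197 in plasma WT (log2 fold change 2.51, adjusted p = 4.14e-07 by edgeR, SE 0.23), and Kdelr2 at 78.1, 80.2, 69.3 and 88.0 and 416, 236, 353 and 381 (log2 fold change 2.30, adjusted p = 1.15e-07 by edgeR, SE 0.18). In aPIK3CD, Kdelr1 was at 40.3, 61.6, 53.7 and 38.1 CPM in naive and 189.7, 235, 243 and 239 in plasma cells, and Kdelr2 at 88.0, 91.8, 103 and 99.9 and 403, 421, 435 and 387. Their log2 fold changes there were 2.37 (edgeR adjusted p = 6.91e-07) and 2.25 (adjusted p = 8.72e-09). For neither gene did the groups overlap. As shares of the 3 receptors' summed CPM per exonic kilobase, Kdelr3 went from 0% in naive cells to 10.2% ± 4.37 (SD, n = 4) in plasma WT and 13.2% ± 3.28 in plasma aPIK3CD. Of 20 paralogue shares tested between plasma and naive cells, 10 shares in each genotype, both of these had an exact permutation test p = 0.0286, adjusted p = 0.0477. A p of 0.0286 is the smallest that 4 against 4 libraries can give. For Kdelr3 it was fixed in advance by 0 counts in every naive library and some in every plasma library. The same holds for Copz2, and these fixed tests lower the adjusted p of the other shares. An adjusted p of 0.0477 therefore gives little support by itself. Kdelr3's share was not confined to plasma cells. It was 7.25% in dark zone WT replicate 2, from 6 counts, and 3.95% in light zone WT replicate 3, from 7 counts. The lowest plasma WT share of Kdelr3 was 4.72%, in replicate 4. Kdelr1's share was 33.9% ± 6.37 in naive and 34.3% ± 9.24 in plasma WT, with overlapping libraries. Kdelr2's share in aPIK3CD was 67.2% ± 5.24 in naive and 56.5% ± 2.31 in plasma cells (exact permutation test p = 0.0286, adjusted p = 0.0477). In WT it was 66.1% ± 6.37 in naive and 55.5% ± 8.72 in plasma cells (exact permutation test p = 0.114, adjusted p = 0.152).

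In the COPII coat, 8 of 11 genes rose and 1 fell in plasma WT, and 10 rose and 0 fell in plasma aPIK3CD. Of all tested genes, 25.4% rose and 24.2% fell in WT, and 26.5% rose and 26.2% fell in aPIK3CD. The adaptor SEC24 has 4 paralogues with different cargo preferences, and they moved apart. Sec24d was at 32.8, 27.6, 22.7 and 37.5 CPM in naive WT and 169, 190.2, 208 and 199 in plasma WT (log2 fold change 2.84, adjusted p = 3.74e-08 by edgeR, SE 0.20). Sec24a was at 30.8, 36.4, 29.1 and 11.7 CPM in naive WT and 228, 202, 171 and 149 in plasma WT (log2 fold change 2.95, adjusted p = 1.2e-06 by edgeR, SE 0.30). Sec24b moved the other way, from 60.2, 90.3, 68.2 and 83.4 CPM in naive WT to 43.4, 31.3, 32.8 and 41.6 in plasma WT (log2 fold change -0.85, adjusted p = 0.0109 by edgeR, SE 0.25). For these 3 genes the plasma and naive WT libraries did not overlap. Sec24c was at 67.5, 187, 62.2 and 78.4 CPM in naive WT and 147, 176, 149 and 142 in plasma WT (log2 fold change 0.80, adjusted p = 0.0434 by edgeR, SE 0.31). Naive WT replicate 2 lay inside the plasma range, the Sec24c log2 fold change without it was 1.31 (adjusted p = 3.89e-05), and leaving out any of the 7 other libraries, or scaling by totals, ended the call.

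The Sec24 pattern recurred in aPIK3CD cells except that the fall of Sec24b missed the threshold. Sec24d was at 30.6, 6.44, 16.7 and 23.6 CPM in naive and 218, 204, 218 and 229 in plasma aPIK3CD (log2 fold change 3.63, adjusted p = 2.64e-06 by edgeR, SE 0.34). Sec24a was at 22.4, 35.4, 31.8 and 35.2 and 201, 161, 118 and 153 CPM (log2 fold change 2.49, adjusted p = 1.46e-06 by edgeR, SE 0.22). Both rose without overlap. Sec24b was at 86.1, 111, 74.0 and 65.8 CPM in naive and 25.0, 36.2, 64.4 and 58.1 in plasma cells (log2 fold change -0.73, adjusted p = 0.0537 by edgeR, SE 0.29), a fall that passed with library totals (-1.18, adjusted p = 0.00434), and Sec24c at 64.1, 73.3, 58.1 and 99.2 and 163, 141, 189.6 and 168 (log2 fold change 1.32, adjusted p = 0.000108 by edgeR, SE 0.19).

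Per exonic kilobase, the 4 paralogues' order changed between the populations. Sec24d made up 14.3% ± 4.59 of the summed Sec24 level in naive WT, 4.34% ± 3.35 in light zone WT and 38.7% ± 4.07 in plasma WT (SD, n = 4). Sec24b made up 36.5% ± 6.15, 43.5% ± 5.07 and 7.92% ± 1.49 of it in the same groups, and Sec24a 7.42% ± 3.21, 16.8% ± 2.14 and 22.3% ± 3.68. The higher share of Sec24d in plasma than in naive WT had an exact permutation test p = 0.0286, adjusted p = 0.0477, as did the lower share of Sec24b and the higher share of Sec24a. These tests are not independent, since a paralogue's share falls when another's rises. Their adjusted p is lowered by the fixed outcomes of Kdelr3 and Copz2. An adjusted p below 0.05 without those fixed tests was not shown for any share. In aPIK3CD the plasma shares were 41.4% ± 1.11 for Sec24d, 9.10% ± 3.32 for Sec24b and 18.0% ± 4.25 for Sec24a, against 9.79% ± 5.15, 44.2% ± 8.77 and 9.26% ± 1.83 in naive cells, each with the same exact permutation p. Sec24c's share was 41.8% ± 9.93 in naive WT and 31.1% ± 1.96 in plasma WT (exact permutation test p = 0.0286, adjusted p = 0.0477). Naive WT replicate 2 was at 56.7%, and the other naive WT libraries were at 35.9% to 37.4%. In aPIK3CD Sec24c's share was 36.7% ± 6.70 in naive and 31.6% ± 2.30 in plasma cells (exact permutation test p = 0.114, adjusted p = 0.152). Sec24a already differed in germinal centre cells, where its share was 19.0% to 27.1% in dark zone WT libraries (n = 3, without replicate 3) and 13.6% to 18.1% in light zone WT libraries, above the 3.28% to 10.03% of naive WT.

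**Figure D2:**
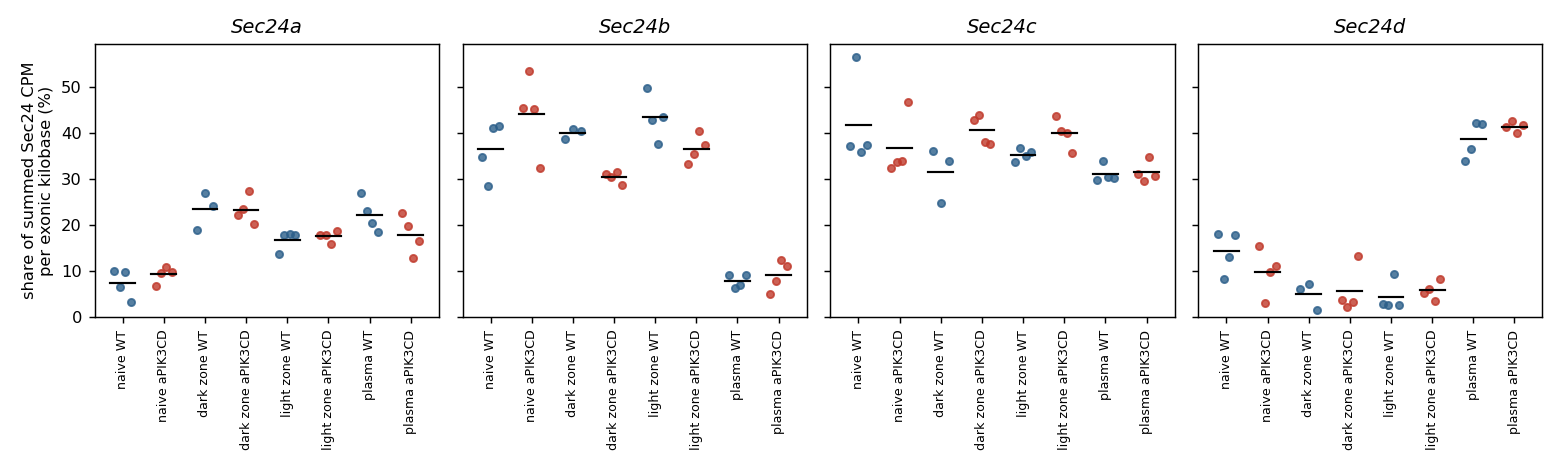
Share of each Sec24 paralogue in the family's summed CPM per exonic kilobase, in percent, 1 point per library and a line at the group mean, WT in blue and aPIK3CD in red, without dark zone WT replicate 3. Sec24d is at 34.0% to 42.6% in the 8 plasma libraries and at most 18.0% in every other library, and Sec24b is at most 12.4% in plasma cells and at least 28.5% elsewhere.

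For the paralogue pairs of SAR1 and SEC23, no share passed the permutation test in either genotype. Sar1a, the GTPase that starts coat assembly, was at 189.9, 191, 177 and 207 CPM in naive WT and 669.8, 568, 624 and 442 in plasma WT (log2 fold change 1.76, adjusted p = 2.05e-07 by edgeR, SE 0.15). Sar1b was at 171, 116, 158 and 126 and 401, 373, 407 and 407 CPM (log2 fold change 1.64, adjusted p = 1.25e-06 by edgeR, SE 0.17), so both rose with no overlap. In aPIK3CD, Sar1a was at 201, 153, 234 and 231 CPM in naive and 637, 602, 710.0 and 759 in plasma cells (log2 fold change 1.88, edgeR adjusted p = 3.11e-07), and Sar1b at 155, 150.2, 153 and 121 and 388, 378, 391.7 and 363 (log2 fold change 1.54, adjusted p = 3.97e-07). Sar1b's share of the pair was 68.6% ± 4.80 in naive WT and 67.4% ± 4.04 in plasma WT (exact permutation test p = 0.943, adjusted p = 0.943). Sec23a was at 55.4, 81.6, 32.1 and 58.4 CPM in naive WT and 71.5, 40.9, 65.7 and 98.4 in plasma WT (log2 fold change 0.45, adjusted p = 0.252 by edgeR, SE 0.32). Sec23b was at 164, 207, 231 and 207 and 210.2, 156, 205 and 164 CPM (log2 fold change 0.04, adjusted p = 0.872 by edgeR, SE 0.16). Neither passed the test in WT, and with library totals alone Sec23b was lower, with a log2 fold change of -0.42 (adjusted p = 0.0397). In aPIK3CD both rose, Sec23a from 52.6, 37.5, 68.8 and 50.9 to 118, 136, 123 and 98.5 CPM (log2 fold change 1.33, adjusted p = 0.000213 by edgeR, SE 0.21) and Sec23b from 184, 236, 254 and 283 to 298, 383, 435 and 276 (log2 fold change 0.69, adjusted p = 0.00485 by edgeR, SE 0.17), although the call of Sec23b was lost with library totals (adjusted p = 0.218). Sec23a's share of the pair was 26.7% ± 8.10 in naive WT and 32.3% ± 8.002 in plasma WT (exact permutation test p = 0.457, adjusted p = 0.508). The cage genes Sec13 and Sec31a rose in WT with log2 fold changes of 1.15 and 0.96, and Sec16a, which marks ER exit sites, with 0.96. With library totals Sec13 kept its call, and those of Sec31a (log2 fold change 0.49, adjusted p = 0.129) and Sec16a (0.50, adjusted p = 0.139) were lost.

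In COPI, 9 of 10 genes rose in plasma WT and 10 of 10 in plasma aPIK3CD, beside 25.4% and 26.5% of all tested genes. With library totals 4 rose in WT (Arf1, Arf4, Cope and Copz2) and 9 in aPIK3CD. Copz2 appeared where it had not been counted. COPZ1 and COPZ2 are alternative zeta subunits of the coat. Copz2 had 0 counts in all 8 naive libraries, 103, 61, 111 and 96 in plasma WT and 152, 114, 101 and 140 in plasma aPIK3CD. In CPM this was 223, 147, 182 and 210.0 in plasma WT and 223, 206, 181 and 226 in plasma aPIK3CD. Against a floor of 3 counts over the naive group it was at least 644-fold higher in WT and at least 731-fold higher in aPIK3CD. Germinal centre libraries held almost none: 3 counts in light zone WT replicate 3, 1 count in dark zone aPIK3CD replicate 4, and 0 in the other 14. With Copz2 and Kdelr3 set to their lower bounds, the members' median log2 fold changes stayed at 0.96 in WT and 1.32 in aPIK3CD.

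Copz1 was at 383, 265, 335 and 340.4 CPM in naive WT and 475, 390.0, 509 and 468 in plasma WT (log2 fold change 0.64, adjusted p = 0.00258 by edgeR, SE 0.15), a call lost with library totals alone (log2 fold change 0.19, adjusted p = 0.266). In aPIK3CD it was at 334, 301, 312 and 391 and 669, 683, 660.0 and 650.5 CPM (log2 fold change 1.14, adjusted p = 9.48e-07 by edgeR, SE 0.10). Per exonic kilobase, Copz2 made up 40.5% ± 3.18 of the zeta pair in plasma WT and 34.2% ± 2.398 in plasma aPIK3CD, and 0% in naive cells (exact permutation test p = 0.0286, adjusted p = 0.0477, in each genotype). With no naive counts of Copz2, this p was fixed in advance. Cope, the epsilon subunit, was at 349, 247, 272 and 286 CPM in naive WT and 1472, 1326, 1260.5 and 1162 in plasma WT (log2 fold change 2.34, adjusted p = 9.15e-09 by edgeR, SE 0.15). In aPIK3CD it was at 274, 265, 279.9 and 271 and 1235, 1189.6, 1272 and 1362 CPM (log2 fold change 2.36, adjusted p = 3.12e-10 by edgeR, SE 0.08), and the groups did not overlap in either genotype. Arf4, a GTPase of the early Golgi, was at 360.0, 286, 325 and 338 CPM in naive WT and 1062, 821, 1042 and 1087 in plasma WT (log2 fold change 1.79, adjusted p = 7.89e-08 by edgeR, SE 0.14). In aPIK3CD, Arf4 was at 341, 263, 311 and 272 CPM in naive and 1148, 1217, 1222 and 1033 in plasma cells (log2 fold change 2.11, adjusted p = 1.11e-08 by edgeR, SE 0.11). Genes on the opposite strand cover 17.7% of its exonic bases, and the sources used here do not state whether counting used strand. The other subunits rose less in WT, with log2 fold changes between 0.43 (Copb2) and 0.98 (Arf1), and Copg1 measured 0.02 (adjusted p = 0.934). With library totals Arf1 kept its call, those of Copa (log2 fold change 0.18, adjusted p = 0.447), Copb1 (0.07, adjusted p = 0.652), Copb2 (-0.03, adjusted p = 0.861) and Arcn1 (0.18, adjusted p = 0.237) were lost, and Copg1 was lower (-0.44, adjusted p = 0.0447).

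**Figure D3:**
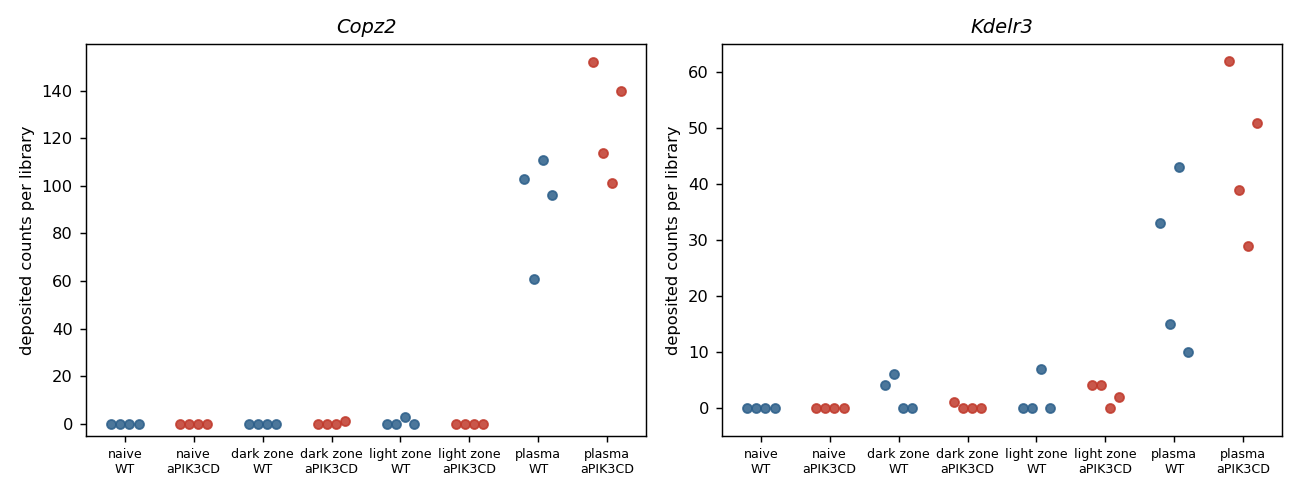
Deposited counts of Copz2 and Kdelr3 in each of the 32 libraries by group, 1 point per library, WT in blue and aPIK3CD in red. Both are at 0 in all naive libraries, at 7 or fewer in germinal centre libraries and at 10 or more in plasma cell libraries.

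Of the SNAREs, 3 of 4 rose in plasma WT, beside 25.4% of all tested genes, and 2 rose with library totals. Bet1 was at 129, 73.8, 93.2 and 96.8 CPM in naive WT and 384, 349, 391 and 346 in plasma WT (log2 fold change 2.07, adjusted p = 3.77e-07 by edgeR, SE 0.19). Sec22b, the vesicle SNARE of ER to Golgi traffic, was at 175, 124, 180.4 and 169 and 496, 424, 601 and 518 CPM (log2 fold change 1.82, adjusted p = 4.07e-07 by edgeR, SE 0.16). Both were separate between the groups. Gosr2, a SNARE of the same step, rose with a log2 fold change of 0.57 (0.11 with library totals, adjusted p = 0.643), and Gosr1, which acts within the Golgi, measured -0.19 (adjusted p = 0.646).

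Of Uso1 and the golgins, 3 of 7 rose in plasma WT and 5 of 7 in plasma aPIK3CD, beside 25.4% and 26.5% of all tested genes. With library totals 3 rose in each genotype. Uso1 (p115) tethers incoming vesicles at the cis-Golgi. It was at 73.3, 113, 91.3 and 59.7 CPM in naive WT and 409.6, 371, 371 and 354 in plasma WT (log2 fold change 2.33, adjusted p = 2.01e-07 by edgeR, SE 0.20). Golgb1 (giantin), a very long golgin, was at 123, 97.4, 129 and 132 CPM in naive WT and 314, 356, 302 and 319 in plasma WT (log2 fold change 1.60, adjusted p = 1.3e-06 by edgeR, SE 0.16). Both stood above every naive library. Golga4, a golgin of the trans-Golgi, rose with a log2 fold change of 1.30. Golga1, Golga2, Golga3 and Golga5 measured 0.24, 0.70, 0.41 and -0.20 in WT and did not pass. With library totals these were -0.22, 0.24, -0.06 and -0.66, and Golga5 was called lower (adjusted p = 0.00395).

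The COG complex, 8 subunits that tether vesicles recycling within the Golgi, had 0 members that rose and 2 that fell in plasma WT, with a median log2 fold change of -0.54. A fall in 2 of 8 is near the 24.2% of all tested genes that fell. Cog2 was at 97.8, 71.1, 71.2 and 65.1 CPM in naive WT and 26.0, 45.7, 31.2 and 21.9 in plasma WT (log2 fold change -1.13, adjusted p = 0.00496 by edgeR, SE 0.29). Cog4 was at 107, 133, 117 and 107 and 67.2, 57.8, 82.1 and 72.2 CPM (log2 fold change -0.56, adjusted p = 0.0242 by edgeR, SE 0.19). In both, every plasma library lay below every naive one. The other 6 subunits ranged from -0.59 (Cog1) to 0.78 (Cog7) and did not pass. In aPIK3CD, Cog6 and Cog7 rose, with log2 fold changes of 1.44 and 1.37, Cog2 and Cog5 fell, with -1.01 and -0.82, and the subunits' median was 0.20 with TMM and -0.25 with library totals. A rise and a fall in 2 of 8 each are near the 26.5% and 26.2% of all tested genes. Neighbouring or overlapping genes share 28.2% of the exonic bases of Cog8, 24.0% of Cog5, 22.4% of Cog1 and 8.5% of Cog4, so counts of these 4 are uncertain to that extent.

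Of 43 members with a RefSeq promoter in the table used (GRCm38.p6, 250 bases before to 50 after the start of transcription), 6 held the letters TGACGTGG on either strand, the core of the unfolded protein response element read by XBP1 and ATF6. That is 14.0% of these members, beside 0.714% of 27025 genes with a promoter there. The 6 were Sec23a, Sec24d, Copb1, Copb2, Arf1 and Kdelr3. The longer ER stress element, CCAAT then 9 bases then CCACG, was in 0 of 43 members and 0.137% of all genes, and its second form, ATTGG then 1 base then CCACG, in 0 and 0.044%, on either strand. Of these 6, Sec24d and Kdelr3 were among the largest rises in plasma cells. Copb1 and Copb2 rose by 0.53 and 0.43 on the log2 scale in WT, and Sec23a did not pass (0.45, adjusted p = 0.252 by edgeR). With library totals Copb1 and Copb2 lost their calls (0.07 and -0.03), and Arf1 was at 0.52. The 3 below, with the core within the last 60 bases before the start, are Sec24d, Kdelr3 and Copb1. Each is the 60 bases before the start, 5′ to 3′ on the gene's strand, with the core in capitals (CCACGTCA is the same core on the other strand).
Sec24d, chr3:123267436-123267495, plus strand: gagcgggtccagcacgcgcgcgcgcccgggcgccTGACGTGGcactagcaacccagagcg
Kdelr3, chr15:79516348-79516407, plus strand: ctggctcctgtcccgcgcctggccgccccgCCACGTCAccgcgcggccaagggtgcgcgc
Copb1, chr7:114254681-114254740, minus strand: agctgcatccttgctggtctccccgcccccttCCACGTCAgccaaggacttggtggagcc
A match describes these letters only. Sec24a, Copz2 and Cope, which also rose, have no match in their windows.

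Per exonic kilobase, the order of the members' levels also changed. In naive WT the highest means were those of Arf1 (122 CPM per kilobase), Sar1b (114) and Arf4 (90.8), and the lowest above 0 were Sec24a (2.53) and Sec24d (4.77). In plasma WT the highest were Cope (389), Sar1b (316) and Arf4 (278), and the lowest were Sec24b (6.19), Cog5 (6.50) and Cog2 (6.53). Copz2 at 86.3 stood in the middle of the plasma WT levels, beside Lman1 (92.3) and Copb1 (74.0).

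Most members were also higher in plasma than in light zone B cells. In WT, 42 of 49 members rose and 2 fell, beside 28.1% and 28.3% of all tested genes, with a members' median log2 fold change of 1.26. In aPIK3CD, 46 rose and 1 fell, beside 29.5% and 31.6%, with a median of 1.53. All 9 cargo receptors, all 10 COPI genes and all 7 golgins with Uso1 rose in each genotype, as did 10 of 11 COPII genes. Of the COG subunits, 3 rose and 1 fell in WT, and 6 rose and 0 fell in aPIK3CD. With library totals, 33 rose and 3 fell in WT and 42 rose and 2 fell in aPIK3CD. Cargo receptors and COPII genes had the same counts by that scaling, while in WT 7 COPI genes, 3 golgins with Uso1 and 1 COG subunit rose, and 2 COG subunits fell. The plasma libraries here are those compared with naive cells above, and the light zone libraries are those of the next comparison. These comparisons are therefore not independent. By smallest p the leading members in WT were Copz2, Arf4, Cope and Mcfd2. Arf4 was at 209, 204, 239.6 and 167 CPM in light zone WT and Cope at 393, 358, 356 and 299, against the plasma values above (log2 fold changes 2.42 and 2.02, edgeR adjusted p = 3.52e-09 and 7.04e-09). Mcfd2 was at 37.8, 40.2, 48.0 and 34.5 CPM in light zone WT (log2 fold change 3.05, adjusted p = 7.91e-09 by edgeR, SE 0.19). Copz2, with 371 counts over the plasma WT and 3 over the light zone WT libraries, was higher by a ratio of 385 (95% exact interval 131 to 1878, counting error only). In aPIK3CD the leading members were Mcfd2, Tmed10, Lman1 and Copz2. Mcfd2 was at 49.98, 53.7, 52.6 and 61.5 CPM in light zone cells (log2 fold change 3.14, adjusted p = 3.36e-10 by edgeR, SE 0.14), Tmed10 at 91.3, 104, 93.3 and 84.3 (log2 fold change 2.65, adjusted p = 5.01e-10 by edgeR, SE 0.12) and Lman1 at 156, 97.0, 122 and 114 (log2 fold change 2.90, adjusted p = 1.07e-09 by edgeR, SE 0.15). Copz2, at 0 counts in light zone aPIK3CD, was at least 429-fold higher in plasma cells. Sec24b was the exception shared by both genotypes, lower in plasma cells by log2 fold changes of -1.23 in WT and -0.69 in aPIK3CD.

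More members were lower than higher in light zone than in naive B cells, with shares called near or below those of all tested genes apart from the falls in WT. In WT, 4 of the 47 members tested rose and 14 fell, beside 19.8% and 20.2% of all tested genes, with a members' median log2 fold change of -0.42 and an all-gene median of -0.04. In aPIK3CD, 7 rose and 10 fell, beside 21.8% and 20.8%, with a median of -0.25. In WT the falls were spread over roles, with 4 COPI, 3 COPII and 3 COG genes, 2 SNAREs, 1 golgin and 1 cargo receptor. Copz2 and Kdelr3 had too few counts to be tested. Dendritic and NK cell markers summed to 78.2 to 111 CPM in light zone WT and 142 to 239 in naive WT libraries. Myeloid markers summed to 60.5 to 276 CPM in light zone WT and 7.23 to 51.9 in naive WT libraries, and the part of either in this comparison was not tested.

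Sec23b led the falls in both genotypes. It was at 48.5, 83.5, 70.5 and 30.5 CPM in light zone WT, below the naive values given above (log2 fold change -1.73, adjusted p = 8.94e-05 by edgeR, SE 0.24), and at 117, 78.9, 94.0 and 92.5 in light zone aPIK3CD (log2 fold change -1.26, adjusted p = 6.11e-05 by edgeR, SE 0.16). Neither pair of groups overlapped. Mcfd2 was also lower, by a log2 fold change of -1.48 in WT (adjusted p = 0.000138) and -0.90 in aPIK3CD (adjusted p = 0.00444), while its partner Lman1 was higher, by 0.95 (adjusted p = 0.00738) and 0.61 (adjusted p = 0.035). Cog8 was at 179.8, 171, 136 and 112 CPM in naive WT and 63.0, 79.7, 80.9 and 39.6 in light zone WT (log2 fold change -1.13, adjusted p = 0.00169 by edgeR, SE 0.23). Golgb1 went up, to 193, 191, 198 and 198 CPM in light zone WT (log2 fold change 0.75, adjusted p = 0.0016 by edgeR, SE 0.15) and 196, 170.3, 157 and 178 in light zone aPIK3CD against 101, 122, 106 and 121 in naive aPIK3CD (log2 fold change 0.70, adjusted p = 0.000871 by edgeR, SE 0.13). In aPIK3CD, Golga5 fell from 168, 180.0, 201 and 248.5 to 98.5, 77.5, 103 and 99.0 CPM (log2 fold change -1.01, adjusted p = 0.000241 by edgeR, SE 0.16) and Cog2 from 87.2, 96.3, 87.1 and 147 to 52.2, 36.3, 47.6 and 41.0 (log2 fold change -1.18, adjusted p = 0.000949 by edgeR, SE 0.22). Sec24a and Sar1b rose in both genotypes, Sec24a by 1.30 in WT and 1.15 in aPIK3CD, and Sec24d fell in WT by a log2 fold change of -1.57 (adjusted p = 0.0142).

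**Figure D4:**
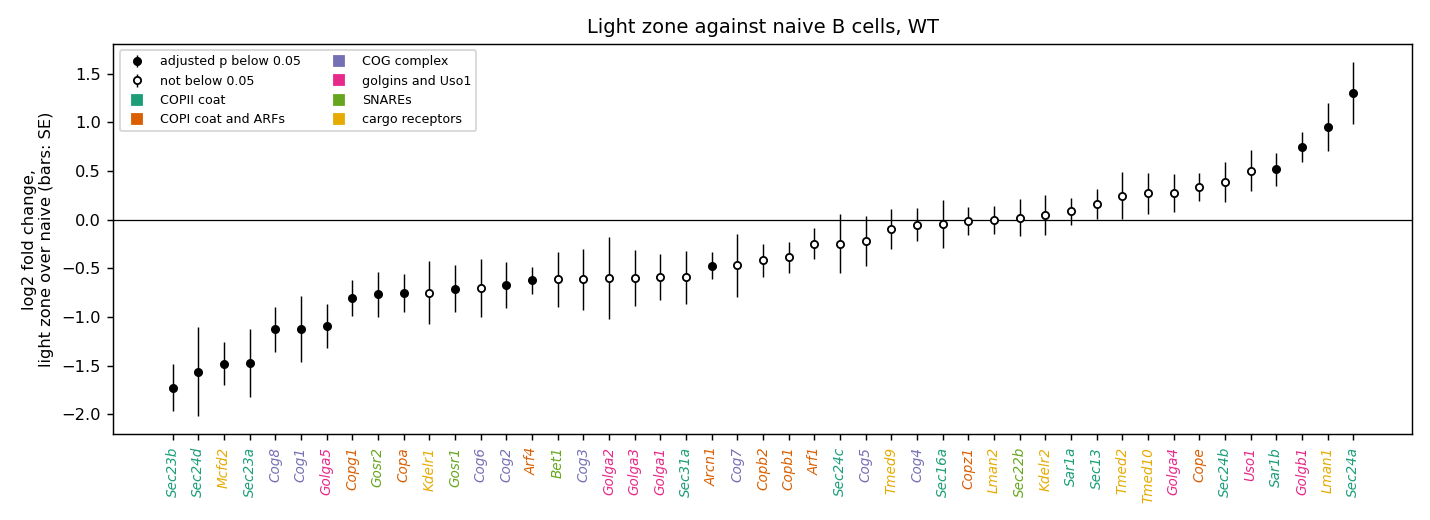
Log2 fold change of light zone over naive B cells in WT for the 47 members tested, with SE bars, filled where the adjusted p was below 0.05 and gene names coloured by role. Sec23b, Sec24d, Mcfd2 and Sec23a lie lowest, and Sec24a, Lman1, Golgb1 and Sar1b are the 4 that rose.

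No member passed the unblocked test between light zone and dark zone cells. In WT, 0 of 47 members rose and 0 fell by edgeR, beside 1.3% and 1.26% of all tested genes, and 3 had an unadjusted p below 0.05, which is 6.38% beside 15.5% of all tested genes. The DESeq2 Wald test also called 0, as did the fit without dark zone WT replicate 3, the library with 25797 counts. In aPIK3CD, 0 rose and 0 fell, beside 3.13% and 2.91%, with 5 at an unadjusted p below 0.05 (10.6% beside 19.5%) and 0 called by DESeq2. With the replicate number as a block, Sec24a was lower (log2 fold change -0.56, adjusted p = 0.0483 by edgeR) and Copb1 higher (0.36, adjusted p = 0.0463) in light zone aPIK3CD cells, and with thinned libraries Sec24a was lower (-0.66, adjusted p = 0.0397).

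Between genotypes, no member passed in naive, dark zone or light zone cells. In naive cells 0 of 47 members passed in either direction, beside 0% of all tested genes, and 0 had an unadjusted p below 0.05, as did 3.06% of all tested genes. The Cre is driven in activated and germinal centre B cells, and whether it had acted in these naive cells was not measured. The lack of calls therefore does not show what activated PIK3CD does in naive cells. Cog2 had the smallest p there, at 87.2, 96.3, 87.1 and 147 CPM in aPIK3CD and 97.8, 71.1, 71.2 and 65.1 in WT (log2 fold change 0.44, adjusted p = 1 by edgeR, SE 0.22). In dark zone cells 0 of 47 passed, beside 0.0105% higher and 0.0105% lower of all genes, and 2 had an unadjusted p below 0.05 (4.26% beside 7.5% of all genes). Cog1 had the smallest, at 36.6, 24.8, 24.6 and 52.6 CPM in aPIK3CD and 9.14, 16.1, 0 and 19.5 in WT (log2 fold change 1.23, adjusted p = 0.427 by edgeR, SE 0.40), and without dark zone WT replicate 3 its log2 fold change was 1.205 (adjusted p = 0.436). In light zone cells 0 of 47 passed, beside 0%, with 3 at an unadjusted p below 0.05 (6.38% beside 6.63%), and Golga4 had the smallest, at 72.4, 88.6, 73.3 and 113 CPM in aPIK3CD and 132, 106, 127 and 184 in WT (log2 fold change -0.66, adjusted p = 0.691 by edgeR, SE 0.20). DESeq2 called 0 members in each of these 3 populations.

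In plasma cells, 8 of 49 members were higher in aPIK3CD than in WT and 0 were lower, beside 1.98% and 1.22% of the 7771 genes tested. The 8 were coat, tether and SNARE genes: Copg1, Copb2 and Copz1 of COPI, Sec23b of COPII, Cog6 and Cog4, Golga5 and Gosr2. None of the 9 cargo receptors was among them, which is near the 1.98% of all tested genes and does not set the roles apart. The members' median log2 fold change was 0.22, and that of all tested genes -0.0028. In 15 members all 4 aPIK3CD libraries lay above all 4 WT libraries, as in 8.52% of all tested genes, and in 0 members below, as in 6.19%.

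Cog6 was at 265, 286, 234 and 252 CPM in plasma aPIK3CD and 139, 93.9, 131 and 74.4 in plasma WT (log2 fold change 1.21, adjusted p = 0.00931 by edgeR, SE 0.18). Cog4, another subunit of the same tether, was at 128, 159, 145 and 132 and 67.2, 57.8, 82.1 and 72.2 CPM (log2 fold change 0.97, adjusted p = 0.0195 by edgeR, SE 0.16). Golga5 (golgin-84), which tethers vesicles within the Golgi, was at 263, 240.4, 254 and 273 and 143, 108, 161 and 142 CPM (log2 fold change 0.86, adjusted p = 0.0172 by edgeR, SE 0.14). These 3 were separate between the genotypes. The same plasma WT libraries were compared with naive WT cells above, where Cog4 fell, so those results are not independent. Copg1, the gamma subunit of COPI, was at 334, 278, 306 and 324 and 182, 183, 182 and 199 CPM (log2 fold change 0.70, adjusted p = 0.0219 by edgeR, SE 0.13). Copb2, the beta-prime subunit, was at 501, 438, 444 and 549 and 264, 296, 348 and 315 CPM (log2 fold change 0.62, adjusted p = 0.0303 by edgeR, SE 0.13). Copz1 was at 669, 683, 660.0 and 650.5 and 475, 390.0, 509 and 468 CPM (log2 fold change 0.50, adjusted p = 0.0315 by edgeR, SE 0.11), while Copz2 measured a log2 fold change of 0.10 (adjusted p = 0.71). Sec23b was at 298, 383, 435 and 276 and 210.2, 156, 205 and 164 CPM (log2 fold change 0.89, adjusted p = 0.0241 by edgeR, SE 0.17). Gosr2 was at 272, 266, 377 and 276 and 202, 156, 190.4 and 147 CPM (log2 fold change 0.75, adjusted p = 0.0311 by edgeR, SE 0.16). None of the 8 genes' libraries overlapped between the genotypes.

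**Figure D5:**
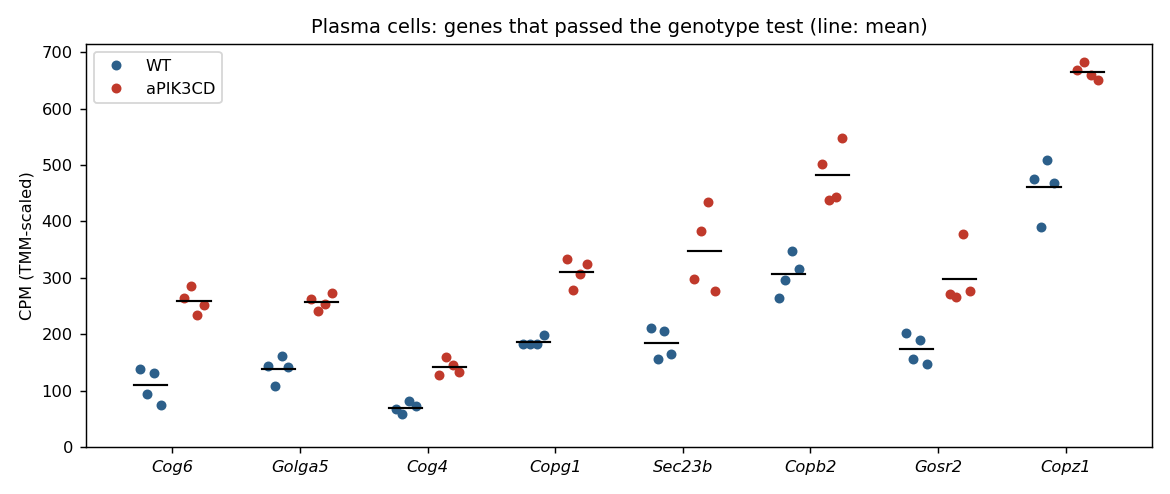
CPM per plasma cell library of the 8 members that passed the genotype test, WT in blue and aPIK3CD in red, with a line at each mean of 4. In each gene all aPIK3CD points lie above all WT points, and Cog6 shows 234 to 286 CPM against 74.4 to 139.

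The number of calls changed with the fit. Plasma totals were higher in aPIK3CD (652722 to 788999) than in WT (473149 to 704361), and when the log2 total entered the fit as a covariate, an alternative chosen after seeing the data, 0 members passed, with Cog6 at a log2 fold change of 1.04 (adjusted p = 0.188). With libraries thinned to the smallest total, 7 members passed. With aPIK3CD replicate 1 counted as WT, as its genotype field reads, 0 passed, and without that library 6 passed. Among the other fits that left out a single library, 1 member passed when aPIK3CD replicate 3 was absent, 4 when aPIK3CD replicate 2 or 4 was, and 3, 2, 9 and 8 when WT replicates 1, 2, 3 and 4 were, in that order. Cog6 kept its call in all 8 of these fits. The myeloid marker sum had a median of 305 CPM in aPIK3CD and 178 in WT plasma cells, with overlapping ranges, and its part was not tested.

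The difference between genotypes in the plasma against naive contrast was tested directly as an interaction, and 0 of 49 members passed in either direction, beside 0.0282% and 0.0094% of all tested genes. Its baseline is the naive cells, in which action of the Cre was not measured. By unadjusted p below 0.05 there were 13 members, or 26.5%, beside 10.3% of all tested genes, and the DESeq2 Wald test called 2, Cog6 (log2 fold change 1.27, adjusted p = 0.0107) and Copb2 (0.70, adjusted p = 0.0465), named here after their values were seen. The smallest p belonged to Cog6 (log2 fold change 1.30, adjusted p = 0.141 by edgeR, SE 0.29), followed by Copb2 (0.73, adjusted p = 0.202), Golga5 (0.75, adjusted p = 0.209) and Cog4 (0.90, adjusted p = 0.212). By edgeR, a larger rise of Cog6 or of any other member in aPIK3CD was therefore not shown, apart from Cog6 and Copg1 in 2 alternative fits: with no filter on low counts (adjusted p = 0.00318 and 0.00778) and without naive aPIK3CD replicate 4 (0.0314 and 0.0389).

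Other genes of the pathway, a list of 65 chosen by function of which 64 were in the table, moved in both directions. In plasma against naive WT cells 37 rose and 8 fell, beside 25.4% and 24.2% of all tested genes, with a median log2 fold change of 0.77. Counts for this list use TMM. Those with library totals, which changed the members' split, are not given for it. The largest rises were Creb3l2, a membrane-bound transcription factor of secretory cells, at 398 against 4.80 CPM in plasma and naive cells (log2 fold change 6.53, adjusted p = 1.1e-10 by edgeR, SE 0.23), Ergic1, of the ER to Golgi intermediate compartment, at 692 against 32.3 (log2 fold change 4.58, adjusted p = 1.6e-09 by edgeR, SE 0.24), and Xbp1, the unfolded protein response factor, at 3707 against 318 (log2 fold change 3.71, adjusted p = 1.8e-10 by edgeR, SE 0.14). Xbp1 was also among the plasma cell markers summed above, so its rise is not a separate result. The largest falls were Arfgap2, which activates ARF's GTPase, at 5.11 against 34.2 CPM (log2 fold change -2.54, adjusted p = 0.00401 by edgeR, SE 0.64), Copg2, the alternative gamma subunit of COPI, at 12.8 against 44.9 (log2 fold change -1.64, adjusted p = 0.00836 by edgeR, SE 0.46), and Zw10, of the NRZ tether at the ER, at 29.7 against 104 (log2 fold change -1.64, adjusted p = 0.000182 by edgeR, SE 0.28). In aPIK3CD 37 rose and 10 fell, beside 26.5% and 26.2%. Between genotypes in plasma cells 3 of 62 tested were higher in aPIK3CD and 0 lower, beside 1.98% and 1.22% of all tested genes. These were Rab1b, a GTPase of ER to Golgi traffic, at 143 against 74.8 CPM (log2 fold change 0.89, adjusted p = 0.0338 by edgeR, SE 0.19), Gorasp2, a Golgi stacking protein, at 868 against 564 (log2 fold change 0.60, adjusted p = 0.0335 by edgeR, SE 0.13), and Surf4, a cargo receptor, at 1111 against 824 (log2 fold change 0.40, adjusted p = 0.0449 by edgeR, SE 0.10). Rab1b had fallen in plasma against naive WT cells, by a log2 fold change of -0.94.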

How the data were processed

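RNA from 500 sorted cells per library was made into cDNA with the SMART-Seq v4 kit, per the labels' protocols. The deposited table holds the authors' raw counts per gene, whole numbers for 53465 genes in 32 libraries. STAR 2.4.2a, HTSeq and Picard are named in the submitters' processing notes. The build and the use of strand are not given in the sources used here. Each comparison had its own fit in edgeR 4.0.16 under R 4.3.3 (TMM, filterByExpr with minimum count 10 and minimum total 15, two-sided quasi-likelihood F test, Benjamini-Hochberg over all genes tested, threshold 0.05), after a check on simulated data. The interaction was fitted over the 4 plasma and naive groups. SE was obtained from the log2 fold change and the F statistic, as their size over root F. CPM are counts over TMM-scaled library sizes of all 32 libraries. Levels per kilobase use GENCODE vM21 exonic length. The members and lists were chosen with earlier results of these data known, and 1 germinal centre marker is not reported here. Genes given in full were, by rule, the 2 largest changes per role in plasma against naive WT, the paralogue sets, up to 4 smallest p in each other population comparison, and every member past the threshold between genotypes or else the smallest p. Paralogue shares were compared by two-sided exact permutation tests. Alternatives were DESeq2 1.42.0 size factors or Wald test, library totals, no filter, leaving out antigen receptor genes (immunoglobulin and T cell receptor), thinning, a replicate block, a single fit over all groups, aPIK3CD replicate 1 counted as WT, and leaving out each library. A correction for position saturation and a depth covariate were added after seeing the data. Intervals and floors (3 counts) cover counting error only, since reads carry no molecular identifiers. Promoter sequences are RefSeq's for GRCm38.p6, and no other coordinates are given.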

Additional observations from a re-analysis of the deposited data

Results flagged for a closer look

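Of 110 gene and group combinations of 4 libraries named in the report, 8 held a library whose gap to the nearest other, relative to the whole range, exceeded Dixon's 95% critical value, where chance gives about 1 in 20. Sec24c in naive WT replicate 2 was at 187 CPM, and the other 3 libraries were at 62.2 to 78.4. Copz2 in light zone WT replicate 3 was at 1.57 CPM, from 3 counts, with 0 in the others. Gosr2 in plasma aPIK3CD replicate 3 was at 377 CPM against 266 to 276. Copg1 in plasma WT replicate 4 was at 199 CPM against 182 to 183. Kdelr1 in plasma aPIK3CD replicate 1 was at 190 CPM against 235 to 243. Arf4 in plasma WT replicate 2 was at 821 CPM against 1042 to 1087. In naive aPIK3CD replicate 4, 2 genes stood apart: Cog2 at 147 CPM against 87.1 to 96.3, and Sar1b at 121 against 150.2 to 155.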

How the results depend on the processing

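Over 13 comparisons, 218 of 234 counts of passing members under another setting stayed within 1.5 times the reported count. In plasma against naive cells the count was 30 to 37 without a single library and 32 to 36 otherwise in WT (35 reported), and 38 to 42 and 37 to 44 in aPIK3CD (41 reported). The 8 members higher in plasma aPIK3CD than WT became 13 with no filter, 13 without antigen receptor genes, 4 with the replicate block, 3 in a single fit over all groups, 0 with aPIK3CD replicate 1 counted as WT, 0 with the depth covariate, and 1 to 9 without a single library. The replicate block here joins same-numbered WT and aPIK3CD libraries, for which no label states a pairing. Between the zones in aPIK3CD, where 0 passed, thinning gave 1 (Sec24a, lower) and the replicate block 2 (Sec24a, lower, and Copb1, higher). The interaction, with 0, gave 2 by the DESeq2 Wald test, 2 with no filter, and 0 to 2 without a single library (2 without naive aPIK3CD replicate 4). The cause was not tested. Of 1157 values for genes given in full by rule, 1085 kept direction and side of the threshold and 1 reversed, Sec23b in plasma against naive WT with library totals (-0.42). Over all 49 members, 8 changed sign in that comparison with library totals: Sec23a, Sec23b, Copb2, Copg1, Cog3, Cog6, Golga1 and Golga3. Of these, Copb2 was called higher with TMM only, and Copg1 and Sec23b were called lower with totals only. No other comparison or setting run changed the sign of a value called in either fit. Libraries with the same number did not correlate above 0.1 in every pair of any comparison, so numbers were not taken as pairs. The table's column names give same-numbered libraries of a genotype 1 name and 1 letter, without saying whether they came from 1 mouse. Each of 4 libraries correlated best with its own number in the zones of aPIK3CD (0.250, 0.231, 0.0525 and 0.0623) and in light zone against naive WT (0.0896, 0.0624, 0.0837 and 0.0317), a hint from the data. The members reached at most 0.404 counts per exonic base, where all genes reached 2.07. Low depth in plasma cells, and 25797 counts in dark zone WT replicate 3, limit what could be detected.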
